A study of Danio rerio with 36 samples.

Results

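The Hox cluster genes were followed in whole zebrafish embryos at 3 stages of early development and at 4 doses of the fuel additive methyl tert-butyl ether (MTBE). The set holds each probe set of the array that the platform annotation gives exactly 1 gene symbol, where that symbol starts with hoxa, hoxb, hoxc or hoxd and a digit. It came to 59 of the 15617 probe sets in the deposited table and to 42 of the 8793 genes named in this way. The digit is the paralog group, the place of the gene along its cluster. Of the probe sets, 12 belonged to the anterior groups 1 to 3, 23 to the central groups 4 to 8 and 24 to the posterior groups 9 to 13. All embryos, controls included, carried the transgene Tg(fli1a:EGFP)y1, in which the fli1a promoter drives green fluorescent protein in the endothelium, the lining of blood vessels. From about 3 hours post fertilization (hpf) they were kept in sealed glass vials with MTBE at 0.00625, 0.625 or 5 mM, or with embryo medium alone. They were frozen at 6-somites (about 15 hpf), 21-somites (about 24 hpf) or Prim-5 (about 30 hpf). Each of the 36 arrays measured a pool of 15 embryos, with 3 pools in each of the 12 groups. The submitters named 5 mM as the dose that gives vascular lesions and 0.625 mM as the dose with no observed adverse effect.

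Hox genes encode homeodomain transcription factors and lie in clusters, in which the order of the genes follows the order of the body regions they specify from head to tail. Low-numbered genes are switched on first and act in the hindbrain and pharyngeal arches, middle genes act in the trunk, and high-numbered genes act in the tail and in the distal fins and limbs. Teleost fish carry extra clusters from a genome duplication, so that some zebrafish genes have an a and a b copy. The Hox genes of the RefSeq table of assembly GRCz12tu numbered 49 on 7 chromosomes, and all 42 genes measured here were among them.

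The values were on a log2 scale, and the medians of the arrays lay between 3.41 and 3.62. Probe sets for a red fluorescent protein, which the labelled genotype does not include, averaged 2.18 and 2.98, and served as a guide to the background. A probe set for green fluorescent protein, which the transgene encodes, averaged 2.71. A level between the red controls therefore does not show that a transcript was absent. Of the Hox probe sets, 35 averaged above both of these controls, 12 lay between them and 12 lay under both. At least 1 probe set above both was found for 28 of the 42 genes. These averages run over all 36 arrays, so 1 stage can decide the place of a probe set. The stage medians of hoxd10a exceeded both red controls only at 21-somites, and those of the brighter hoxb7a probe set only at 6-somites. The first control pool of 6-somites and that of 21-somites stood apart, with a mean over 8 yolk syncytial layer genes of 5.41 against 6.09 to 6.61 on the other arrays of that stage, and of 5.89 against 7.44 to 7.98. The Hox probe sets had a median 0.08 and 0.20 above their stage means on those arrays, against -0.07 to 0.06 on the other arrays of both stages. Whole embryos were lysed, so fewer cells of a type and less RNA per cell cannot be told apart in anything that follows. The labels do not say whether the pools came from separate clutches, so the p-values cover no more than the spread from pool to pool.

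Between 6-somites and 21-somites the Hox genes moved in both directions. With the 4 doses averaged (12 arrays against 12), 43 of 59 probe sets passed the test (limma, adjusted p under 0.05 over all 15502 probe sets tested), against 52.8% of all probe sets. Of the 59, 25 were higher at 21-somites, where the share over all probe sets was 21.5%, and 18 were lower, where it was 31.2%. The median Hox difference was 0.07 and that of all probe sets -0.07. Posterior probe sets were higher in 13 and lower in 7 of 24, central ones in 6 and 9 of 23, and anterior ones in 6 and 2 of 12. Among the 35 Hox probe sets above both red controls the calls were split into 13 higher and 14 lower, where all probe sets of that kind had 28.3% higher and 32.9% lower. Among the 24 dimmer ones they were 12 higher and 4 lower, against 12% and 28.9%.

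Between 21-somites and Prim-5 nearly all Hox calls were downward. With the doses averaged, 38 of 59 passed, against 30.4% of all probe sets. Of these, 33 were lower, where the share over all probe sets was 16.8%, and 5 were higher, where it was 13.6%. The median Hox difference was -0.24 and that of all probe sets -0.03. The lower ones were 14 of 23 central, 16 of 24 posterior and 3 of 12 anterior probe sets. Among those above both red controls 21 of 35 were lower, against 24.2% of all such probe sets, and among the dimmer ones 12 of 24, against 6.42%. In this step 34 of the 59 probe sets had a negative difference at all 4 doses (24.9% of all) and 7 had a positive one at all 4 (18.8%). In the first step 19 were negative at every dose (33.3% of all) and 26 positive (23%).

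Over the whole span from 6-somites to Prim-5, 46 of 59 Hox probe sets passed with the doses averaged, against 66.9% of all probe sets. Of these 16 were higher (25.4% of all) and 30 lower (41.5%), and the differences ran from -1.53 to 1.85. At single doses 31, 29 and 31 passed from the lowest to the highest dose, against 40.4%, 40% and 39.9% of all, and 27 passed in the controls, against 36.4%.

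**Figure D1:**
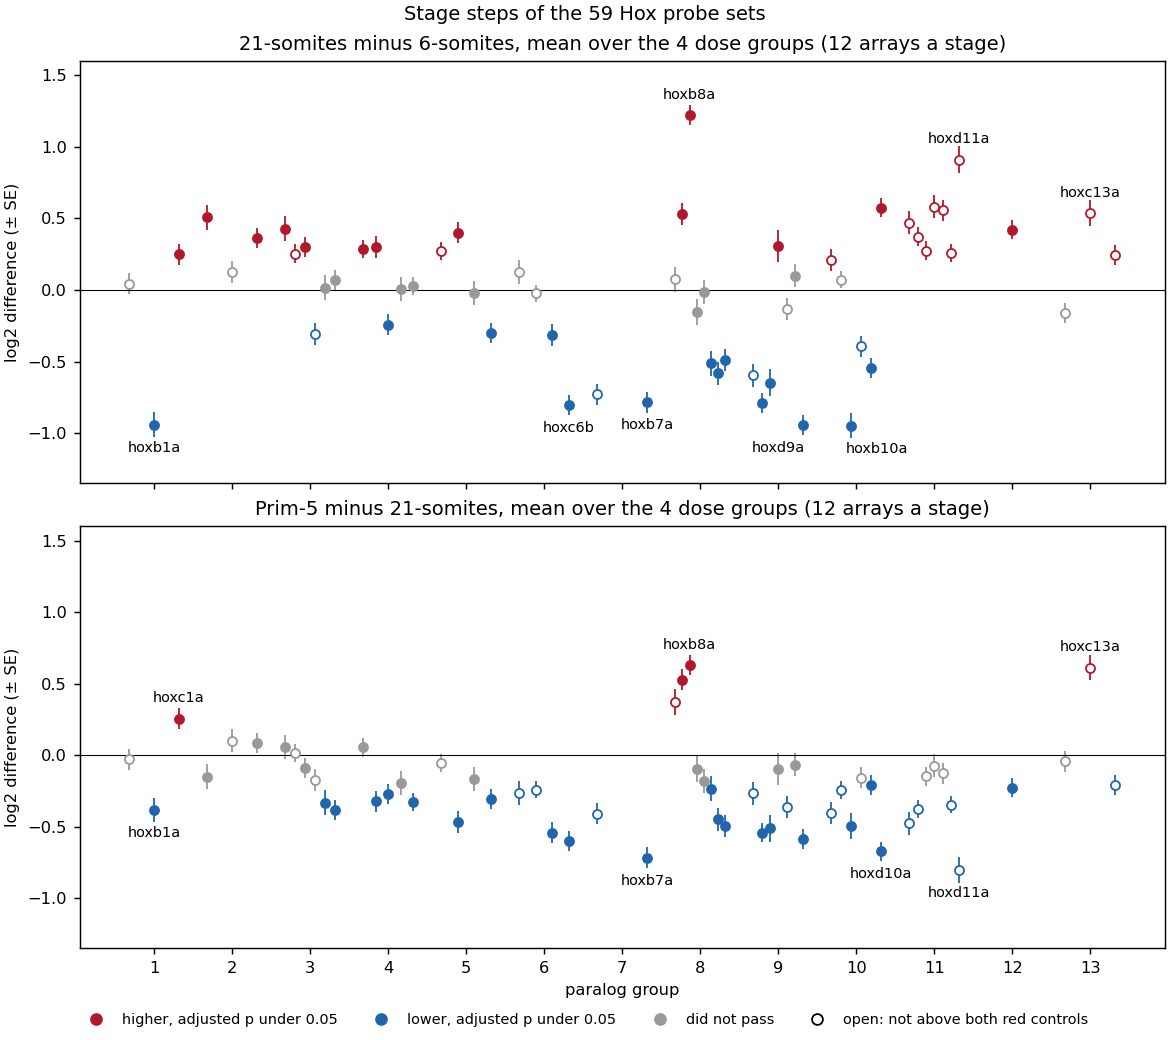
Each point is 1 Hox probe set, placed by its paralog group number (1 to 13) on the horizontal axis and by its log2 difference between stages, averaged over the 4 doses, on the vertical axis, with bars of 1 standard error. The panels show 21-somites minus 6-somites (25 higher and 18 lower) and Prim-5 minus 21-somites (5 higher and 33 lower); red is higher, blue is lower, grey did not pass, and filled points average above both red fluorescent controls.

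When both steps were read together with the doses averaged, 16 of 59 probe sets (27.1%) fell in each step. This was a course that 9.27% of all probe sets took. They belonged to hoxb1a, hoxc4a, hoxc5a, hoxc6a, hoxc6b, hoxb7a, hoxc8a, hoxa9a, hoxa9b, hoxd9a and hoxb10a. A further 10 (16.9%, against 2.09% of all) rose and then fell, and 11 (18.6%, against 11.4%) rose and then did not pass. Only hoxc1a, hoxc13a and hoxb8a (2 of its 3 probe sets) rose in both steps, which made 4 probe sets (6.78%, against 8.02%). No Hox probe set fell and then rose, a course of 1.03% of all probe sets. In 8 probe sets (13.6%, against 37.2%) neither step passed. Of the 10 that rose and then fell, 4 were among the 35 Hox probe sets above both red controls (hoxb4a, hoxb5a, hoxd10a and hoxc12b). By its stage medians (2.88, 3.48 and 2.78) hoxd10a exceeded both red controls only at 21-somites, so its place among the 4 rests on the stage where it was high. The rest of the 10 were dim, and the share of this course among all probe sets above both red controls was not counted.

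The step did not follow the paralog number in a simple order. Over the 59 probe sets, which share their arrays, the rank correlation of the difference with the paralog number was 0.13 in the first step and -0.19 in the second. Over the 35 above both red controls it was -0.22 and -0.29. All 7 probe sets of group 11 rose in the first step, against 21.5% of all probe sets and 12% of those not above both red controls. Both of group 7 and 4 of 7 of group 9 fell, against 31.2% of all. In the second step all 4 of group 6, both of group 7 and 5 of 6 of group 10 fell, against 16.8% of all. The groups were not tested against each other. The members are taken below in the order of their groups, with each log2 level given as the lowest, the median and the highest of the 12 arrays of a stage. No fold is given where a stage's median was not above both red controls, where the log2 difference of the values is all that can be read.

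Group 1 held 3 genes that took 3 courses. hoxb1a, which marks rhombomere 4 of the hindbrain and patterns the facial motor neurons, stood at 3.54, 4.13 and 4.42 at 6-somites, at 2.91, 3.11 and 3.34 at 21-somites and at 2.30, 2.76 and 2.99 at Prim-5. The 6-somites arrays were all above the 21-somites arrays, whereas those of the later stages overlapped. It fell by 0.94 ± 0.08 (SE) on the log2 scale in the first step, to 0.52 of its level (limma adjusted p 7.15e-12), and by 0.38 ± 0.08 in the second (adjusted p 0.000548). In the controls alone hoxb1a differed by -1.11, which passed, and then by -0.11, which did not. hoxc1a, a gene of fish that mammals have lost, stood at 4.17, 4.70 and 4.85, then at 4.62, 4.87 and 5.10, then at 4.66, 5.16 and 5.43. The arrays of neighbouring stages overlapped, and both small rises passed, 0.25 ± 0.08 (adjusted p 0.00586) and 0.26 ± 0.08 (0.00861). For hoxc1a the controls alone gave 0.60, which passed, and then 0.09, which did not. hoxa1a, the other group 1 gene, averaged between the red controls, stood at medians of 2.20, 2.19 and 2.18 and passed in neither step (0.04 and -0.03).

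In groups 2 and 3, whose genes act in the hindbrain and arches, 5 of 9 probe sets rose in the first step and none of those 5 passed in the second. Over all probe sets 21.5% rose in the first step. hoxa2b, which gives the second pharyngeal arch its identity, stood at 3.79, 4.27 and 4.86, then at 4.62, 4.78 and 5.21, then at 4.25, 4.71 and 5.00. Arrays of neighbouring stages overlapped at the edges. The rise was 0.51 ± 0.09 (adjusted p 1.07e-05), and the second difference, -0.15 ± 0.09, did not pass (0.216). hoxb2a, which acts in the anterior hindbrain, rose by 0.37 ± 0.07 (adjusted p 5.04e-05) on its brighter probe set, with medians of 4.18, 4.46 and 4.59. Its dimmer one, with medians of 2.44, 2.51 and 2.62, gave 0.13 and did not pass.

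The group 3 genes pattern the posterior hindbrain and the arches behind it. hoxa3a rose by 0.43 ± 0.09 (adjusted p 7.43e-05) and 0.26 ± 0.07 (0.00134) on its probe sets, whose medians went from 3.93 to 4.33 and from 1.75 to 1.95. hoxb3a stood at 6.11, 6.38 and 6.59, then at 6.48, 6.63 and 7.01, and rose by 0.30 ± 0.07 (adjusted p 0.000449). Neither gene passed in the second step. hoxd3a passed on neither probe set in the first step (0.02 and 0.07) and fell on both in the second, by 0.33 ± 0.09 (adjusted p 0.00262) and 0.38 ± 0.07 (6.43e-05). hoxc3a, under both red controls, fell by 0.31 ± 0.08 in the first step (adjusted p 0.00109), where its medians were 2.17 and 1.88.

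Groups 4 and 5, whose genes mark the posterior hindbrain and anterior spinal cord and help to place the pectoral fins, are set out here by cluster. On the a clusters, hoxa4a rose by 0.29 ± 0.07 in the first step (limma adjusted p 0.000372) and hoxa5a by 0.27 ± 0.06 (0.00048), and neither passed in the second. The level of hoxa5a averaged between the red controls. On the b clusters, hoxb4a rose by 0.30 ± 0.07 (adjusted p 0.000929) and then fell by 0.32 ± 0.07 (0.000874). hoxb5a, which with its copy hoxb5b has been tied to the placing of the pectoral fin, stood at 3.02, 3.30 and 3.54, then at 3.15, 3.73 and 3.98, then at 2.90, 3.24 and 3.43. Most 21-somites arrays lay above the other stages, though the ranges overlapped. It rose by 0.40 ± 0.07 (adjusted p 2.59e-05) and fell by 0.47 ± 0.07 (5.22e-06); the rise was 0.03 in the controls alone and 0.64, 0.49 and 0.44 at the doses from lowest to highest. hoxb5b passed in neither step.

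With the doses averaged, the c cluster genes of these groups fell in both steps. hoxc4a fell by 0.24 ± 0.07 (adjusted p 0.00451) and then by 0.27 ± 0.07 (0.00299). hoxc5a, with medians of 4.94, 4.62 and 4.35, fell by 0.30 ± 0.07 (0.00048) and then by 0.31 ± 0.07 (0.000795). In the controls alone both genes passed only in the second step. The control arrays of hoxc4a were at 4.92, 4.37 and 4.55 at 6-somites and at 4.71, 4.52 and 4.46 at 21-somites. hoxd4a, a gene of the posterior hindbrain and anterior spinal cord, passed only in the second step, in which its brighter probe set fell by 0.33 ± 0.06 (7.34e-05) after a difference of 0.03. Its dimmer one, with medians of 3.15, 3.06 and 2.87, passed in neither.

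Groups 6 and 7 hold genes of the trunk, and each of their 6 probe sets fell in the second step (16.8% of all probe sets). hoxc6b stood at 6.03, 6.23 and 6.53, then at 5.29, 5.33 and 5.87, then at 4.61, 4.86 and 5.16. No array of a stage reached the range of the stage before. It fell by 0.80 ± 0.07, to 0.57 of its level (adjusted p 3.37e-12), and again by 0.60 ± 0.07, to 0.66 (1.33e-08). Its copy hoxc6a stood at 7.11, 7.26 and 7.73, then at 6.81, 7.06 and 7.26, then at 6.13, 6.51 and 6.78. Its first 2 stages overlapped and the last lay below both, with falls of 0.31 ± 0.07 (adjusted p 0.000621) and 0.54 ± 0.07 (3.77e-07). hoxb6a and hoxb6b, which both averaged between the red controls, passed only in the second step, with falls of 0.26 ± 0.08 (0.013) and 0.24 ± 0.06 (0.0018).

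hoxb7a and hoxb8a are neighbours on the ba cluster, on chromosome 3 in the order of GRCz12tu, and took opposite courses. hoxb7a, the only group 7 gene measured here, stood at 3.37, 3.82 and 4.18, then at 2.85, 2.95 and 3.39, then at 1.96, 2.32 and 2.56 on its brighter probe set. All Prim-5 arrays lay below all 21-somites arrays, while the first 2 stages touched. It fell by 0.79 ± 0.07 (adjusted p 1.75e-11) and by 0.72 ± 0.07 (4.83e-10). The second hoxb7a probe set fell by 0.73 ± 0.07 and 0.41 ± 0.07, with its Prim-5 median, 1.83, under both red controls.

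hoxb8a, a trunk and spinal cord gene that in mice is also expressed in blood precursors, stood at 4.01, 4.19 and 4.41, then at 5.08, 5.40 and 5.61, then at 5.74, 5.99 and 6.44. Each stage lay wholly above the one before. It rose by 1.22 ± 0.07, or 2.33-fold (adjusted p 1.99e-17), and by 0.63 ± 0.07, or 1.54-fold (4.05e-09), the widest upward differences among the 59 probe sets in either step. The first rise was 1.18 in controls and 1.03, 1.29 and 1.39 at the doses from lowest to highest, and the second was 0.77, 0.59, 0.69 and 0.45. Another hoxb8a probe set, with the suffix that the manufacturer gives to probes that can match more than 1 gene, rose by 0.53 ± 0.08 in each step. The third one averaged between the red controls and passed only in the second step, with a rise of 0.37 ± 0.09 (adjusted p 0.00126).

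The other group 8 genes did not rise. hoxc8a stood at 6.15, 6.63 and 6.95, then at 5.71, 6.17 and 6.43, then at 5.36, 5.67 and 5.91 on its brightest probe set. Its stages overlapped at the edges, and it fell by 0.49 ± 0.08 (adjusted p 1.4e-06) and 0.50 ± 0.08 (2.46e-06). Both other hoxc8a probe sets fell in each step too, by 0.51 and 0.58 and then by 0.24 and 0.45. hoxb8b passed in neither step on either of its probe sets, with differences of -0.15 and -0.01 in the first and -0.10 and -0.18 in the second.

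**Figure D2:**
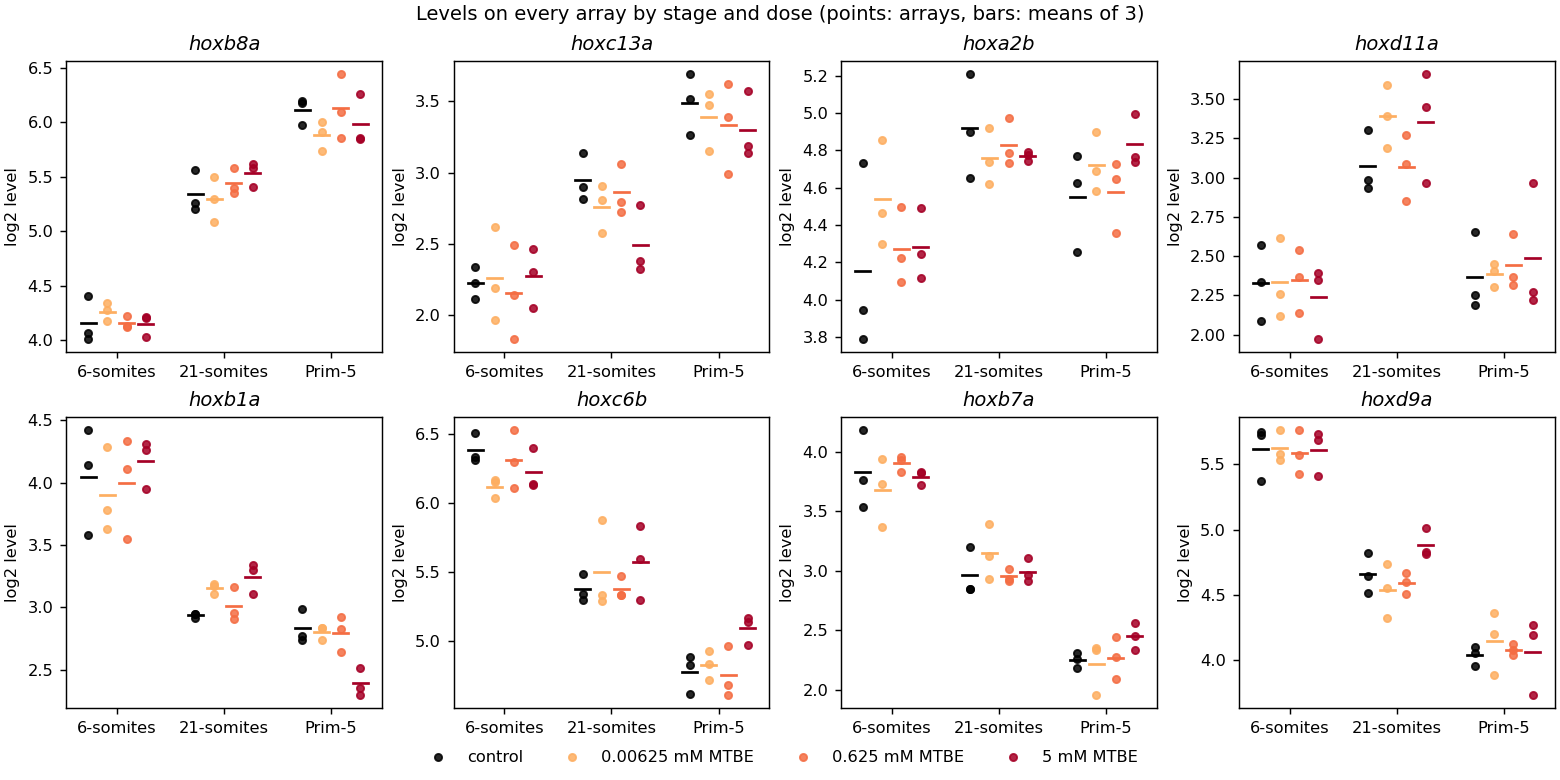
Points are arrays, with the log2 level of the probe set on the vertical axis and the 4 doses of each stage side by side on the horizontal axis, and bars are means of 3 arrays, for hoxb8a, hoxc13a, hoxa2b, hoxd11a, hoxb1a, hoxc6b, hoxb7a and hoxd9a. hoxb8a and hoxc13a rise over both steps, hoxd11a is highest at 21-somites (2.85 to 3.66), and hoxc6b, hoxb7a and hoxd9a go down in both steps.

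Group 9, at the border of trunk and tail and also active in the fin bud, held deep falls beside a gene that passed in neither step. hoxd9a stood at 5.37, 5.64 and 5.76, then at 4.32, 4.66 and 5.01, then at 3.73, 4.09 and 4.36. The first stage lay above both others, and the later stages overlapped slightly. It fell by 0.94 ± 0.07, to 0.52 of its level (adjusted p 4.72e-14), and by 0.59 ± 0.07, to 0.67 (1.95e-08). hoxa9a fell without overlap in both steps on its brighter probe set, from 5.16, 5.33 and 5.78 through 4.41, 4.57 and 4.74 to 3.65, 4.04 and 4.33. The falls were 0.79 ± 0.07 (adjusted p 2.36e-12) and 0.54 ± 0.07 (5.88e-08). Its dimmer probe set, under both red controls, also fell in each step, by 0.60 and 0.27.

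hoxa9b, the copy of hoxa9a, stood at 3.58, 4.29 and 4.58, then at 3.37, 3.52 and 3.75, then at 2.52, 3.06 and 3.41, and its stages overlapped. It fell by 0.65 ± 0.09 (adjusted p 4.3e-07) and by 0.51 ± 0.09 (5.35e-05). hoxc9a passed in neither step, at medians of 4.31, 4.40 and 4.33. hoxb9a was the 1 gene whose probe sets differed in sign in the first step. The brighter, with medians of 5.63, 5.91 and 5.84, rose by 0.31 ± 0.11 (adjusted p 0.0183), and the dimmer, with medians of 2.82, 2.64 and 2.28, gave -0.13 and then fell by 0.36 ± 0.08 (0.000296).

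Group 10, whose mouse genes keep the lumbar vertebrae free of ribs, held a deep fall in the first step and a rise that was then undone. hoxb10a stood at 3.93, 4.39 and 5.01, then at 3.13, 3.48 and 3.86, then at 2.62, 2.98 and 3.23 on its brightest probe set. The first stage lay wholly above the second. It fell by 0.95 ± 0.09, to 0.52 of its level (adjusted p 2.23e-11), and by 0.49 ± 0.09 (3.51e-05), and its other probe sets fell by 0.55 and 0.39 in the first step and by 0.21 (adjusted p 0.0219) and 0.16 (0.102, not passing) in the second.

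hoxd10a went up and came back. It stood at 2.70, 2.88 and 3.10, then at 3.23, 3.48 and 3.71, then at 2.56, 2.78 and 3.16. All 12 arrays of 21-somites lay above all 24 others. The rise was 0.57 ± 0.07 (adjusted p 4.8e-09), and it then fell by 0.67 ± 0.07 (3.72e-10). hoxa10b, near the red controls at medians of 2.58, 2.71 and 2.39 on the brighter of its probe sets, rose by 0.21 ± 0.08 (0.0247) and fell by 0.40 ± 0.08 (9.46e-05). On the dimmer only the fall passed, 0.24 ± 0.06 (0.00213).

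Group 11, whose mouse genes pattern the sacral region and the forearm, rose together in the first step, but only 4 of its 7 probe sets passed in the second. Its levels lay near or under the red controls. All 7 probe sets of its 5 genes rose in the first step, and none of the 7 averaged above both red controls. Among all probe sets not above both red controls 12% rose. hoxd11a stood at 1.97, 2.34 and 2.62, then at 2.85, 3.23 and 3.66, then at 2.19, 2.34 and 2.97. The 21-somites arrays lay above all those of 6-somites and overlapped only slightly with Prim-5. It rose by 0.91 ± 0.09 (adjusted p 1.41e-10) and fell by 0.80 ± 0.09 (7.88e-09). hoxa11a rose by 0.47 ± 0.08 and fell by 0.48 ± 0.08, hoxa11b rose by 0.37 ± 0.07 and fell by 0.38 ± 0.07, and hoxc11b rose by 0.26 ± 0.06 and fell by 0.35 ± 0.06. The 3 probe sets of hoxc11a rose by 0.28 to 0.58 and then did not pass, with differences of -0.15, -0.07 and -0.13.

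The genes of groups 12 and 13 act last and at the end of the body, and group 13 genes also act in the distal fin. hoxc12b, above both red controls, stood at 2.68, 3.14 and 3.36, then at 3.28, 3.53 and 3.73, then at 3.14, 3.28 and 3.48. Its stages overlapped, with a rise of 0.42 ± 0.07 (adjusted p 1.5e-06) and a fall of 0.23 ± 0.07 (0.00716). hoxc13a stood at 1.83, 2.21 and 2.62, then at 2.32, 2.80 and 3.14, then at 2.99, 3.43 and 3.69, so that it passed from near the lower red control to above the higher one. It rose by 0.54 ± 0.09 (adjusted p 3.66e-06) and by 0.61 ± 0.09 (9.42e-07). hoxd13a, under both red controls, rose by 0.24 ± 0.07 (0.004) and fell by 0.21 ± 0.07 (0.0208), and hoxa13b passed in neither step, at medians of 2.10, 1.94 and 1.91.

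Markers of regions that express Hox genes moved over the same steps, and their part in these results was not tested. All 4 measured markers of the tailbud (tbxta, tbx16, msgn1 and cdx4), all above both red controls, fell in each step. Their mean level per array was 6.29 to 6.69 at 6-somites, 5.17 to 5.48 at 21-somites and 3.79 to 4.24 at Prim-5. Both measured markers of the hindbrain segments (egr2b and epha4a) fell in each step, and only epha4a was above both red controls. Their mean went from 4.59 to 5.13 through 4.06 to 4.58 to 3.63 to 4.07. Of 4 neuronal markers, 2 rose and 1 fell in the first step and 2 rose in the second. Only elavl3 of these was above both red controls. The mean of the 4 went from 3.49 to 3.85 through 3.78 to 4.11 to 4.36 to 4.66. Of 3 markers of the pectoral fin bud, where posterior Hox genes also act, 2 fell in the first step and 1 in the second. Among them tbx5a was not above both red controls. Markers of somite muscle and of the pronephros were read too. All 4 of somite muscle, all above both red controls, rose in the first step, and 2 rose and 2 fell in the second. Of the 2 measured in the pronephros, 1 rose and 1 fell in each step. Over all probe sets 21.5% rose and 31.2% fell in the first step, and 13.6% and 16.8% in the second.

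Of the duplicate copies, 7 pairs had both an a and a b gene on the array. Each gene was read by its probe set with the highest mean level. The difference of the copies was taken on each array and compared between neighbouring stages, 12 against 12, by a permutation test with Benjamini-Hochberg adjustment over the 14 tests, of which 4 passed. hoxb8a moved away from hoxb8b in both steps, by 1.24 ± 0.13 and 0.81 ± 0.15 (SE), each with an adjusted p of 4.67e-05, which rests on the smallest p that 100000 resamples can give. The hoxb8a probe set used was the one with the widest rises. In the first step the other hoxb8a probe sets went from means of 4.36 to 4.89 (passed) and 2.61 to 2.69 (did not pass). They were not set against hoxb8b. hoxc6b fell further than hoxc6a in the first step, by 0.49 ± 0.06 (adjusted p 4.67e-05), but no such difference passed in the second (0.06, adjusted p 0.374). hoxb5a rose relative to hoxb5b in the first step by 0.42 ± 0.13 (adjusted p 0.014), with -0.30 in the second (0.0569). Taken by dose, the first-step difference was -0.02 in the controls and 0.54, 0.52 and 0.64 at the doses from lowest to highest, a split by dose that was not tested.

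In the other pairs, of groups 6, 9 and 11, no difference passed between the copies. For hoxa9a against hoxa9b the differences were -0.14 (adjusted p 0.288) and -0.03 (0.744), for hoxb6a against hoxb6b 0.15 (0.288) and -0.02 (0.744), and for hoxa11a against hoxa11b 0.10 (0.459) and -0.10 (0.288). For hoxc11a against hoxc11b they were 0.30 (0.0569) and 0.22 (0.174). A p that misses the threshold does not show that the copies act alike.

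**Figure D3:**
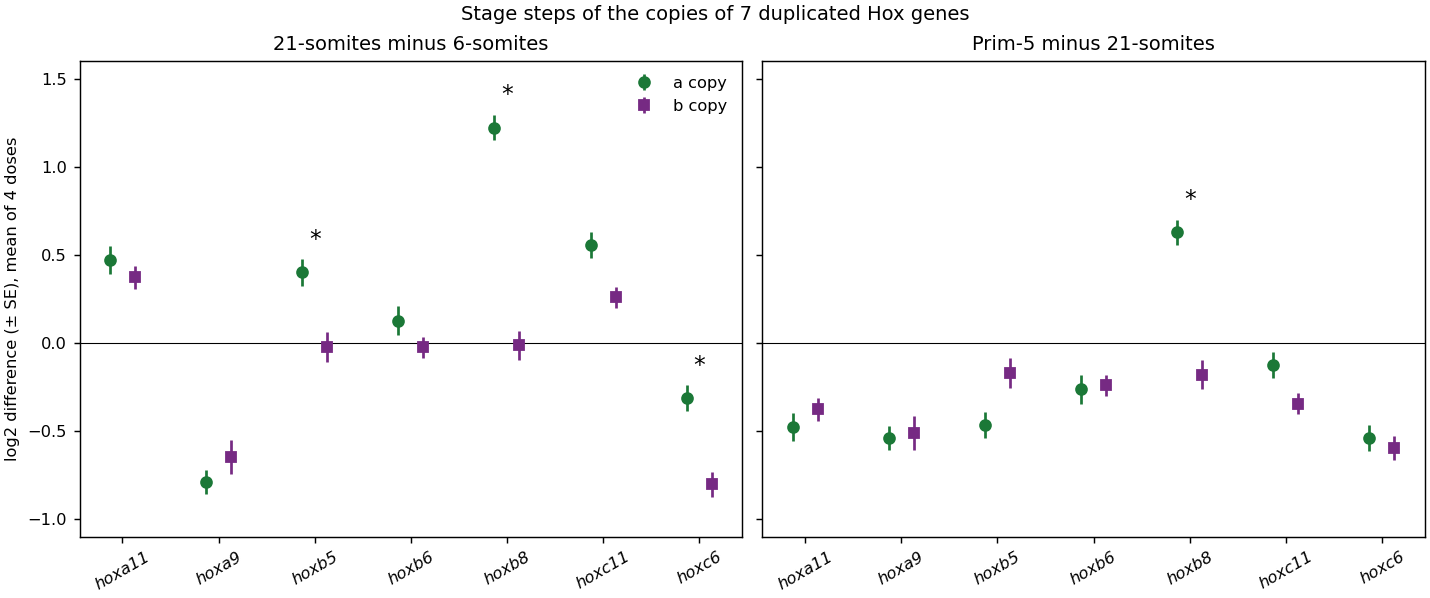
The vertical axis gives the log2 difference between stages (mean of 12 arrays against 12, bars of 1 standard error) for the a copy (circle) and the b copy (square) of 7 duplicate gene pairs, in panels for each step. Each gene is shown by its probe set with the highest mean level. A star marks a pair whose copies differed at an adjusted p under 0.05, which held for hoxb8, hoxc6 and hoxb5 in the first step and for hoxb8 in the second.

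Of the 13 genes with more than 1 probe set, none had probe sets that passed in opposite directions within a step. By cluster, calls in the first step came to 7 higher and 6 lower of 17 probe sets on ba and to 5 and 7 of 13 on ca. The counts were 5 higher and 2 lower of 8 on aa, 3 and 1 of 6 on ab, 3 and 1 of 8 on da and 2 and 1 of 3 on cb, where all probe sets had 21.5% higher and 31.2% lower; the clusters were not tested against each other. In the second step 7 of 8 on da fell, 9 of 17 on ba, 6 of 13 on ca, 4 of 6 on ab, 3 of 8 on aa and all 3 on cb, where 16.8% of all probe sets fell. The bb cluster, with 4 probe sets of hoxb5b, hoxb6b and hoxb8b, had no call in the first step, where its differences ran from -0.15 to -0.01, and 1 fall in the second.

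The controls alone, with 3 arrays a stage, also moved in both directions in the first step. In it 34 of 59 passed, against 22.6% of all probe sets, with 20 higher (11.7%) and 14 lower (10.9%). The widest rises were hoxb8a (1.18), hoxa3a and hoxa2b (0.77 each), hoxd11a (0.75), hoxc13a (0.72), hoxc12b (0.67), hoxc11a (0.64), hoxd10a (0.61), and hoxc1a and hoxa1a (0.60 each). The widest falls were hoxb10a (-1.36), hoxb1a (-1.11), hoxc6b (-1.01), hoxd9a (-0.96), hoxa9a (-0.92 and -0.68), hoxb7a (-0.89 and -0.86), hoxa9b (-0.86) and hoxc8a (-0.78). For hoxb8a, hoxa3a, hoxc11a, hoxb10a and hoxc8a the value is that of the probe set with the widest change. A dimmer probe set of hoxb8a and 1 of hoxc8a did not pass in this step. hoxa1a passed in the controls (2.73, 2.32 and 2.42 at 21-somites against 1.99, 1.62 and 2.07 at 6-somites, with no overlap) but had differences of -0.16, -0.20 and -0.05 at the doses. Without the pair of control arrays low in yolk genes the count was 27, with 15 higher (9.99% of all) and 12 lower (7.55%).

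From 21-somites to Prim-5 the controls had 18 that passed, against 7.04% of all probe sets, with 17 lower (2.7%) and hoxb8a alone higher (4.33%), at 0.77 (adjusted p 0.000186). The widest falls were -0.72 for hoxa9a and for hoxb7a, -0.71 for hoxd11a, -0.70 for hoxd4a, -0.65 for hoxa9b, -0.64 for hoxc6a, -0.63 for hoxd9a, -0.61 for hoxc8a and for hoxd10a, and -0.60 for hoxb4a. For hoxb8a, hoxa9a, hoxd4a and hoxc8a only 1 probe set of the gene passed here. That of hoxc8a had not passed in the first step of the controls, in which the other hoxc8a probe sets had. The count was 11 without the pair of arrays low in yolk genes (10 lower, 2.15%, and 1 higher, 3.43%), 10 without control replicate 1 at 21-somites and 11 without control replicate 3 at Prim-5. The Hox probe sets on that last array had a median difference of -0.10 from the stage mean, the lowest of the 12 arrays of Prim-5.

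Each dose of MTBE was also read alone. In the first step 12 Hox probe sets were higher (11.2% of all) and 12 lower (13.3%) at 0.00625 mM, 11 (10.8%) and 15 (10.4%) at 0.625 mM, and 11 (12.6%) and 16 (15.1%) at 5 mM. In the second, 3 were higher (4.9%) and 11 lower (2.34%) at 0.00625 mM, where 7.24% of all passed either way. There were 2 (5.86%) and 14 (5.45%) at 0.625 mM, and 2 (5.38%) and 14 (3.94%) at 5 mM, where 9.32% of all passed either way. On the arrays themselves the ranges of 12 against 12 did not overlap upward for 4 probe sets in the first step (5.57% of all probe sets), of hoxb8a, hoxd10a and hoxd11a. They did not overlap downward for 7 (3.6%), of hoxb1a, hoxc6b, hoxb7a, hoxa9a, hoxd9a and hoxb10a. Between 21-somites and Prim-5 this held upward for the same 2 hoxb8a probe sets (2.94%), and downward for 5 (1.13%), of hoxc6a, hoxc6b, hoxb7a, hoxa9a and hoxd10a.

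MTBE moved no Hox probe set past the threshold at any stage. Each of the 3 doses was set against the control at each of the 3 stages (3 arrays against 3; the doses of a stage share their controls), and 0 of 59 passed in each of the 9 comparisons (limma). Over all probe sets 0.29% passed at 6-somites with 0.00625 mM (0.0516% lower), 0.0129% at 6-somites with 0.625 mM and 0.00645% at Prim-5 with 5 mM, and none in the other 6. At an unadjusted p under 0.05 there were 9, 6 and 4 Hox probe sets at 6-somites from the lowest to the highest dose (13.8%, 6.88% and 8.61% of all), 4, 5 and 7 at 21-somites (5.5%, 5.93% and 7.5%), and 4, 1 and 6 at Prim-5 (2.02%, 3.45% and 3.73%). The median Hox difference was between -0.06 and 0.08 in all 9, and single differences ran from -0.51 to 0.51. The median standard error was 0.149. All 59 of the 95% intervals lay within 1 log2 unit of 0 in each comparison, and 38 to 48 of the 59 lay within 0.5.

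**Figure D4:**
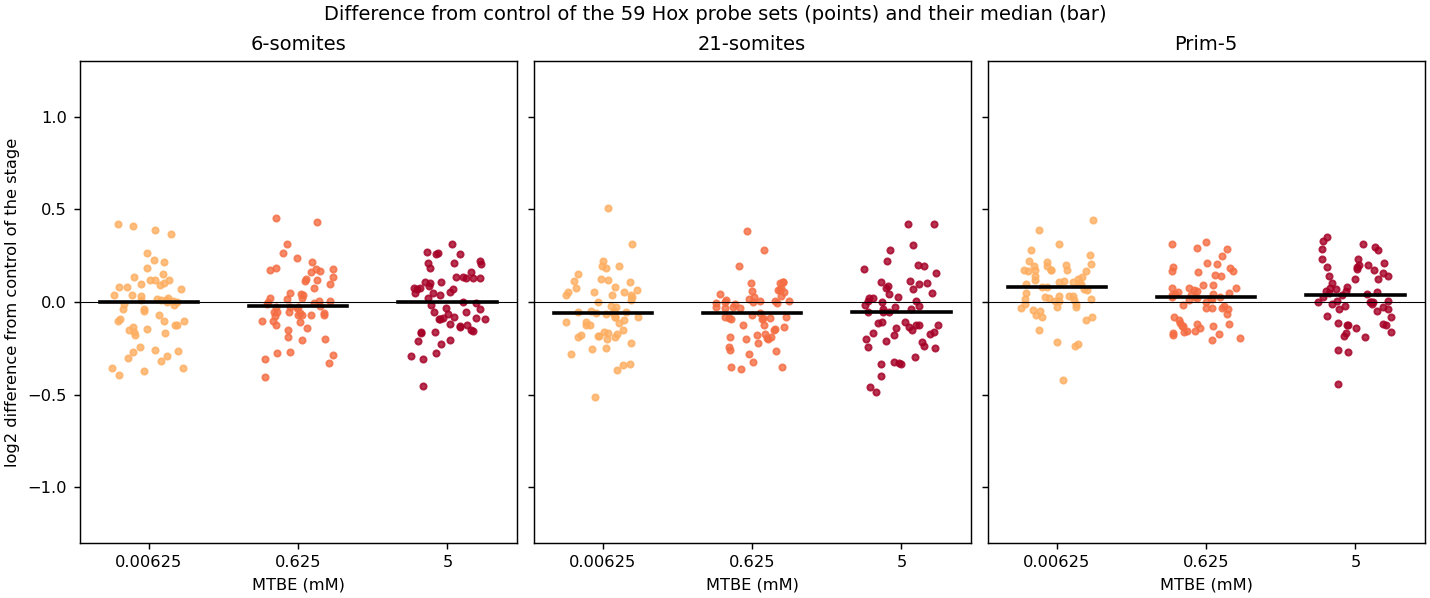
Each point is 1 of the 59 Hox probe sets, with its log2 difference from the control of the same stage on the vertical axis and the 3 doses of MTBE at each stage on the horizontal axis; the bar is the median of the 59. The medians lie between -0.06 and 0.08, and no point passed the test.

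No member passed at 6-somites. From the lowest to the highest dose, 8.74%, 5.73% and 6.15% of all probe sets had their exposed arrays wholly above the controls. Among the Hox probe sets 3, 3 and 4 did. Wholly below the controls lay 4.69%, 4.04% and 3.24% of all, and 3, 1 and 0 Hox probe sets. The members with the smallest p follow. hoxc11b, under both red controls, was at 1.68, 1.69 and 1.82 in controls and at 2.24, 2.03 and 2.15 at 0.00625 mM, a difference of 0.41 ± 0.12 with no overlap (limma adjusted p 0.115). hoxa1a was at 1.99, 1.62 and 2.07 in controls, at 2.43, 2.41 and 2.10 at 0.00625 mM, at 2.18, 2.48 and 2.38 at 0.625 mM and at 2.32, 2.09 and 2.21 at 5 mM. All exposed arrays were above the shared controls, by means of 0.42 (adjusted p 0.172), 0.45 (0.466) and 0.31 (0.554). hoxb10a at 5 mM was at 4.41, 3.93 and 4.37 against 5.01, 4.39 and 4.69, which overlapped, with a difference of -0.46 (0.489). The control at 5.01 is the array low in yolk genes, and without it the difference was -0.30. The rest were hoxc5a (-0.36 at 0.00625 mM and -0.31 at 5 mM), hoxc1a (0.43 at 0.625 mM) and hoxc11b at 0.625 mM (0.31).

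At 21-somites 4.15%, 5.24% and 4.99% of all probe sets lay wholly above the controls from the lowest to the highest dose, with 2, 1 and 2 Hox probe sets. Wholly below lay 5.73%, 5.92% and 7.83% of all, with 6, 5 and 6 Hox probe sets. hoxb5a was at 3.15, 3.32 and 3.64 in controls, at 3.89, 3.95 and 3.80 at 0.00625 mM, at 3.95, 3.66 and 3.65 at 0.625 mM and at 3.45, 3.93 and 3.98 at 5 mM. Of the 9 exposed arrays, only 1 at 5 mM lay within the range of the shared controls. The differences were 0.51, 0.38 and 0.42, with adjusted p of 0.854, 0.834 and 0.629. hoxa4a was at 5.67, 5.54 and 5.65 in controls, at 5.20, 5.31 and 5.27 at 0.625 mM and at 5.11, 5.32 and 5.23 at 5 mM. Those exposed arrays were all below the controls, by -0.36 (adjusted p 0.834) and -0.40 (0.593). hoxd4a (-0.37 and -0.32 at both lower doses) and hoxb8b (-0.51 at 0.00625 mM and -0.49 at 5 mM) were the others. The shared controls include the array low in yolk genes, and without it the hoxd4a differences were -0.24 and -0.20.

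At Prim-5 all adjusted p came to 1.00 after rounding for the members with the smallest p. With 5 mM 2 Hox probe sets lay wholly below the controls (3.86% of all) and 7 wholly above (5.22% of all). hoxb1a at 5 mM was at 2.36, 2.52 and 2.30 against 2.99, 2.74 and 2.77 in controls, which did not overlap and differed by -0.44. All of these but the control at 2.99 lay between the red controls (2.18 and 2.98), so they are near the guide to the background. The hoxb1a fall from 21-somites to Prim-5 was -0.86 at 5 mM (limma adjusted p 0.00048) and -0.11 in controls, which did not pass. In the test of the 5 mM effect by stage, given below, hoxb1a did not pass. The others were hoxb7a (0.35) and hoxd4a (0.28) at 5 mM, hoxa9a (0.31), hoxc11a (0.32) and hoxb4a (0.28) at 0.625 mM, and hoxa11b (0.39), hoxd3a (-0.42) and hoxa9b (0.44) at 0.00625 mM.

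Averaging each dose over the 3 stages also gave 0 of 59 (none of all probe sets), with 2, 1 and 2 Hox probe sets at an unadjusted p under 0.05 from the lowest to the highest dose (5.91%, 4.56% and 5.46% of all probe sets). All 59 intervals then lay within 0.5 log2 units of 0 at each dose. The members with the smallest p were hoxd4a (-0.18, adjusted p 0.816), hoxb5a (0.19) and hoxc11b (0.14) at 0.00625 mM, hoxd4a (-0.20, adjusted p 0.993), hoxb5a (0.16) and hoxa3a (-0.14) at 0.625 mM, and hoxb7a (0.21, adjusted p 0.861), hoxc11a (0.18) and hoxc5a (-0.16) at 5 mM. The hoxd4a values are of different probe sets, the brighter at 0.00625 mM and the dimmer at 0.625 mM. That of hoxa3a is of its dimmer probe set, under both red controls. Without the controls low in yolk genes hoxb5a was at 0.12 and 0.09 at both lower doses and hoxd4a at -0.09 at 0.625 mM. When 5 mM was set against both lower doses within a stage, 0 of 59 passed at each stage (4, 3 and 3 at an unadjusted p under 0.05, against 7.32%, 2.75% and 4.8% of all), where 0.00645% of all probe sets passed at Prim-5 and none at the other stages. The members with the smallest p there were hoxb8b (0.54, adjusted p 0.403), hoxb7a (0.38) and hoxa11a (-0.32) at 6-somites, hoxd9a (0.32), hoxb10a (0.35) and hoxc13a (-0.32) at 21-somites, and hoxb1a (-0.41, adjusted p 0.921), hoxc4a (0.32) and hoxc6b (0.30) at Prim-5.

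Whether the 5 mM effect changed with the stage was tested by a moderated F test, and 0 of 59 passed (8 at an unadjusted p under 0.05, against 7.66% of all probe sets). The members with the smallest p were hoxb10a (5 mM differences of -0.46, 0.42 and -0.14 at the 3 stages in order), hoxd4a (-0.08, -0.33 and 0.28) and hoxa4a (-0.05, -0.40 and 0.21), with a smallest adjusted p of 0.555. For hoxb10a and hoxd4a these were the probe sets with the highest mean level. In this F test the unadjusted p was 0.511 and 0.808 on the other hoxb10a probe sets and 0.789 on the other hoxd4a one. The same test over all 3 doses gave 0 of 59 (7 at an unadjusted p under 0.05, against 6.67%) and a smallest adjusted p of 0.654.

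Genes that act with or upstream of the Hox genes were read over the same steps, from lists chosen with earlier results of these data known. In the first step 21.5% of all probe sets rose and 31.2% fell, and in the second 13.6% and 16.8%; the counts below are of genes, and no list was tested against these shares. Of the TALE homeodomain proteins, which bind DNA together with Hox proteins, 13 of 15 genes were measured, and 5 rose and 5 fell in the first step, with a median of 0.07. The widest were meis2a (0.90), meis1a (0.80), pbx4 (-0.49) and pknox1.2 (0.39), followed by meis3 (-0.33). In the second step 3 rose, pbx3b (0.57), meis2a (0.23) and pbx2 (0.17), and tgif1 fell (-0.28). On this list 11 of 13 genes averaged above both red controls, while pbx3b, at 1.64, lay under both.

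Of the caudal genes and the neighbours of the clusters, 6 of 8 were measured. cdx4, a caudal factor that switches on posterior Hox genes, fell by 1.39 and then by 1.98, and cdx1a fell by 0.80 in the first step. gbx2, a gene of the border of midbrain and hindbrain, gave -0.65 there and passed, and evx1, which lies beside a Hox cluster, rose by 0.58. From 21-somites to Prim-5 cdx4 was the 1 gene of this list that passed. Only 3 of the 6 averaged above both red controls, and cdx1a was not among them.

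Retinoic acid is the signal that sets anterior Hox borders, and 16 of 19 of its genes were measured, of which 1 rose and 11 fell in the first step and 1 rose and 5 fell in the second. cyp26a1, which breaks retinoic acid down, fell by 1.01 and then by 0.61, and the receptors rarga, raraa and rarab fell by 0.82, 0.68 and 0.58 in the first step. rarab (-0.57) and rxrbb (-0.29) were lower in the second, in which cyp26b1, another degrading enzyme, rose by 0.40.

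Of the genes of hindbrain segmentation 10 of 12 were measured, and 8 fell in each step, with medians of -0.58 and -0.32. irx7 and hnf1bb fell by 1.56 and 1.26 in the first step, fgf8a passed downward too, and epha4b was the 1 that rose, by 2.01. irx7 (-0.70), egr2b (-0.67), irx1b (-0.67) and epha4a (-0.41) led the falls of the second. Among the 10 genes 6 averaged above both red controls, but epha4b (2.95) and egr2b (2.43) did not. Of the Polycomb and trithorax genes, which hold Hox genes off or on, 16 of 21 were measured, with 2 rises (bmi1a 0.64 and bmi1b 0.58) and 5 falls in the first step, phc2a (-0.73) and cbx2 (-0.52) the widest, and 3 falls in the second, phc2a (-0.39), suz12a (-0.26) and rnf2 (-0.19). Above both red controls averaged 14 of these 16 genes and 12 of the 16 retinoic acid genes. No gene of these 5 lists passed in any of the 9 dose comparisons.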

How the data were processed

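RNA of whole embryo pools was amplified, biotin-labelled and hybridised to Affymetrix zebrafish arrays, per the labels' protocols. The authors deposited log2 values per probe set; how they corrected, summarised and normalised them is not given in the sources used here, and the values were used as deposited. Genes were named through the platform annotation: of the 15502 probe sets left after 115 manufacturer controls were taken out, 10795 had 1 symbol, 135 several and 4572 none. One linear model over the 12 groups was fitted with limma 3.58.1 in R 4.3.3 (eBayes, Benjamini-Hochberg adjustment over all 15502, threshold 0.05), and was tested on simulated data. The number of arrays limits the precision. Copies of duplicate genes, each read by its probe set with the highest mean level, were compared by permutation. The members and lists were chosen with earlier results of these data known. Named were the members with the 10 widest passing changes each way in each step of the controls, and the 3 with the smallest p where no dose effect passed. Alternatives were other normalisations, filters on dim probe sets, 50 added on the linear scale, other estimates of spread, array weights, fewer arrays and a replicate block. Replicate numbers did not pair the arrays. No sequences were used here.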

Additional observations from a re-analysis of the deposited data

How the results depend on the processing

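Every dose comparison gave 0 Hox probe sets under all alternatives run. When the probe sets under the median level were left out, which kept 25 of the Hox probe sets, the count of Hox probe sets that passed went to 17 and 11 in the controls and to 21 and 17 with the doses averaged (first and second step in each case). With only the 35 above both red controls it was 22 in the first step of the controls and 27 and 24 with the doses averaged; fewer probe sets were tested in both settings. Without the pair of controls low in yolk genes the second step of the controls gave 11, with 10 lower (2.15% of all) and 1 higher (3.43%). With each array left out in turn the counts ran from 27 to 32 and from 10 to 17 in the controls, and from 42 to 44 and 36 to 40 with the doses averaged. With only the arrays of the groups compared the controls gave 23 and 12, while the counts over all probe sets went from 3505 to 1966 and from 1091 to 578. With the replicate number as a block the counts were 34 and 18, and 43 and 39 with the doses averaged, and 0 for each dose; the numbers did not pair the arrays (correlations of deviations between -0.31 and 0.24, over 0.1 in 8 of 54 pairs).

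With the doses averaged, the share of calls that were higher in the first step was 40.8% over all probe sets as deposited, 51.2% after cyclic loess and 29.5% with arrays centred, and among Hox calls 58.1%, 58.1% and 53.3%. In the second step it was 44.8% as deposited and 58.8% after cyclic loess over all probe sets, and 13.2% and 13.9% among Hox calls. In the controls, centring moved the share in the first step from 51.7% to 35.1% over all and from 58.8% to 48.4% among Hox calls (54.9% and 62.9% after cyclic loess), and cyclic loess moved that of the second from 61.6% to 75% over all and from 5.56% to 15% among Hox calls. No named member reversed; in the second step of the controls hoxb7a, hoxa9b, hoxc8a, hoxd11a, hoxc6a and hoxb4a, and in the first hoxa2b and hoxa9a, missed the threshold under at least 1 alternative, and the cause was not tested. Dim probe sets near the red controls limit what can be read of groups 11 and 13, where none averaged above both. The same limit holds for dim members of other groups, such as hoxa1a, hoxc3a, hoxa5a, hoxb6a, hoxb6b and hoxa10b.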
